A study of Mus musculus with 6 samples.

Results

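The genes of MHC class I antigen presentation were examined in platelet RNA of control and pre-AML mice. The members were the rows of the FPKM table with the symbols B2m, H2-D1, H2-K1, H2-T23, Tap1, Tap2, Tapbp and Erap1, and all 8 were found among 14975 genes. FPKM are fragment counts scaled to transcript length and library size, so they allow levels of different genes to be compared per length. There were 3 control libraries, which the labels call WT, and 3 pre-AML libraries, which the labels call AML, all on a C57BL/6 background. Per the study's methods, pre-AML mice were irradiated recipients of GFP+ cells, which came from earlier recipients of hematopoietic stem and progenitor cells infected with a MLL-AF9 retrovirus, sampled 1 week after transplantation, and control mice were irradiated and received normal bone marrow. Both groups were therefore transplanted, recipients were female C57BL/6 or CD45.1 mice of 8 to 12 weeks, and no sort of platelets by host or donor origin is described. The virus drives the oncogene in the transplanted cells, not in the host. Platelet-rich plasma had been depleted of CD45+ and Ter119+ cells. The labels speak of 2 replicates and pools of 3 to 4 mice where the methods give 3 independent mice, so p-values measure only the spread between these libraries.

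MHC class I molecules show peptides from inside the cell to CD8 T cells and are read by inhibitory receptors of NK cells. A heavy chain pairs with beta-2 microglobulin, the proteasome cuts proteins into peptides, the TAP1 and TAP2 transporter carries them into the endoplasmic reticulum, tapasin holds the empty heavy chain at the transporter, and ERAP1 trims the peptide ends. Platelets carry class I molecules on their surface although they have no nucleus and inherit most RNA from the megakaryocyte. The immunoproteasome and the transporter are induced by interferon gamma and are high in leukocytes.

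The platelet label was checked on Pf4 and Ppbp, the chemokines of platelet alpha granules. They had 38150 to 79255 and 10090 to 20466 FPKM in the 6 libraries. Reads recovered from the FPKM values lay between 11936010 and 17778985 per library. The size by which FPKM were scaled was 23330902 for pre-AML 3, which exceeds the 17778985 reads recovered there. All its FPKM values are therefore lower than scaling by those reads would give. Size and reads were close for the controls and for pre-AML 1 and 2, with quotients from 0.983 to 1.01. The FPKM values summed to 508605 to 541784 in 5 libraries and to 376148 in pre-AML 3, so FPKM and a share of the FPKM total place pre-AML 3 differently. The library pre-AML 3 stood apart, with Spearman correlations of 0.842 to 0.880 with the others, which had 0.962 to 0.973 among themselves. It also had the highest summed levels of monocyte and macrophage, B cell and T and NK cell markers. The summed level of 9 monocyte and macrophage markers that were under 1 FPKM in every control was 0.134 to 0.704 FPKM in the control libraries, 0.207 and 2.86 FPKM in pre-AML 1 and 2, and 298 FPKM in pre-AML 3. For 7 B cell markers the sum was 0.311 to 0.977 FPKM in controls against 0.363, 4.57 and 59.6 FPKM in pre-AML 1, 2 and 3. For 8 T and NK cell markers it was 0.139 to 0.397 FPKM in controls against 10.4, 6.04 and 21.1 FPKM in pre-AML 1, 2 and 3. Some genes of these lists were high in control platelets too, such as Lyz2 of the monocyte and macrophage list, with 2384 to 2615 FPKM in the control libraries and 2333 to 3093 FPKM in pre-AML libraries, and Nkg7 of the T and NK cell list, with 18.9 to 28.2 FPKM in all libraries. The 10 neutrophil markers summed to 2.08 to 2.98 FPKM in the control libraries and 3.73, 1.11 and 1.80 FPKM in pre-AML 1, 2 and 3, with 5 of them at 0 in pre-AML 3. Of the leukocyte list, 4 genes under 1 FPKM in every control, among them Ptprc, which encodes CD45, summed to 0.140 to 0.843 FPKM in the control libraries and 5.74, 5.77 and 174 FPKM in pre-AML 1, 2 and 3. All 10 leukocyte genes summed to 810.1 to 861 FPKM in the control libraries and 862, 937 and 1033 FPKM in pre-AML 1, 2 and 3, most of it from Laptm5, with 729 to 866 FPKM in all libraries. Cd53 of that list was lower in each pre-AML library than in every control, with 35.7 to 54.4 against 25.1 to 30.1 FPKM. The 6 erythroid genes summed to 2350 to 2652 FPKM in the control libraries and 2991, 2884 and 2377 FPKM in pre-AML 1, 2 and 3. Endothelial and leukemic progenitor markers under 1 FPKM in every control summed to at most 1.71 and 1.07 FPKM in any library, over 3 and 6 genes. These sums leave out Tie1 of the endothelial list, with 18.7 to 23.5 FPKM in all libraries. They also leave out Cd34 of the leukemic progenitor list. Cd34 had 1.62, 1.75 and 0.214 FPKM in control 1, 2 and 3 and 0.403 to 0.633 FPKM in pre-AML libraries. In these bulk samples, fewer cells of a type and less RNA per cell cannot be told apart.

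The members fell into an abundant part and a scarce part. B2m, the 3 heavy chains and Tapbp lay between 41.7 and 65038 FPKM in every library. Tap1, Tap2 and Erap1 lay between 0.107 and 2.95 FPKM. In control platelets the order of means was B2m, H2-D1, H2-K1, H2-T23, Tapbp, Tap2, Tap1 and Erap1. The ranges of neighbors did not overlap, except those of Tap1 and Erap1, so the last pair was not ordered by these data. None of the 6 members tested passed the threshold of an adjusted p of 0.05 between pre-AML and control platelets (limma-trend on log2(FPKM + 1), Benjamini-Hochberg adjustment over the 4412 genes whose mean reached 1 FPKM). Over all genes tested 1 gene, or 0.0227%, rose, and 0 genes, or 0%, fell. The gene that rose was Gzma, granzyme A of cytotoxic lymphocytes. Without adjustment, 113 genes (2.56%) on the higher side and 288 (6.53%) on the lower side had a p under 0.05, and 0 of these were members. Limma-voom on recovered reads also called 0 members, and there B2m had an unadjusted p under 0.05 and an adjusted p of 0.415.

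**Figure D1:**
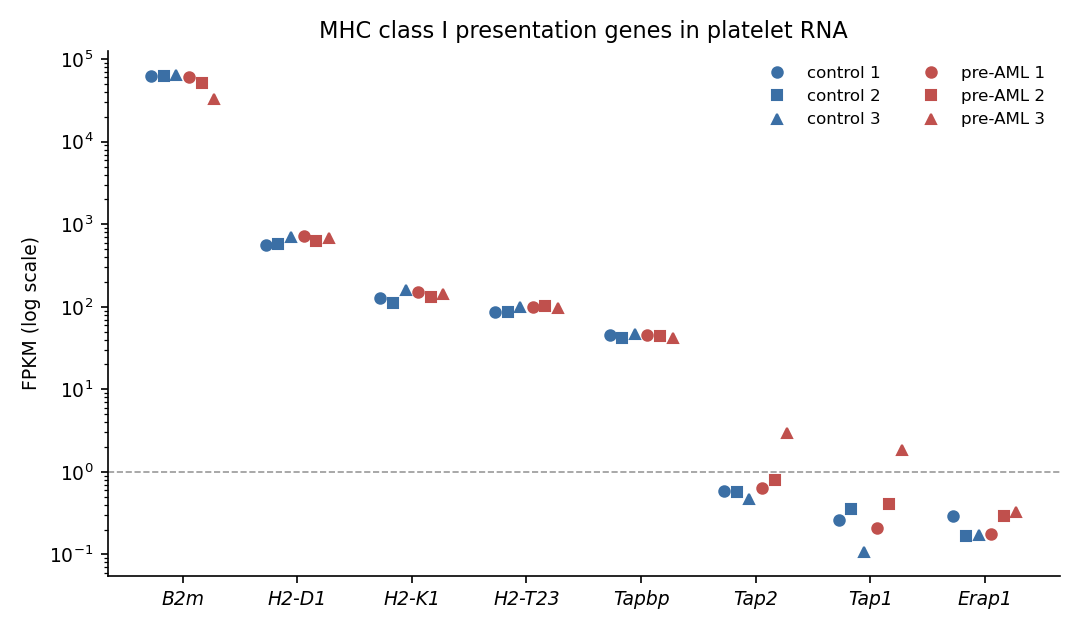
FPKM of the 8 members in each library on a log axis, with control libraries in blue and pre-AML libraries in red and 1 symbol per replicate number. The dashed line marks 1 FPKM, and only Tap2 and Tap1 of pre-AML 3 lie above it among the 3 scarce members, at 2.95 and 1.86 FPKM.

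B2m (Entrez gene 12010, chr2:122147686-122153083, plus strand, GRCm38) encodes beta-2 microglobulin, the light chain shared by all class I molecules. It had 63354, 63431 and 65038 FPKM in control 1, 2 and 3 and 60575, 51374 and 32662 FPKM in pre-AML 1, 2 and 3. Each pre-AML library was below every control, and pre-AML 3 was farthest below. In each library it was the first or second gene of the table, with Pf4 as the other. Its recovered reads numbered 639525 to 767617 per library, which was 5.36%, 5.53% and 5.56% of reads on listed genes in control 1, 2 and 3 and 5.12%, 4.47% and 3.69% in pre-AML 1, 2 and 3. The groups did not overlap in this share either, and how many of all genes behave so on this scale was not counted. The log2 fold change was -0.45 with a standard error of 0.21 (limma-trend, adjusted p = 0.522 with Benjamini-Hochberg adjustment), which did not pass the threshold. Of all genes tested, 564 (12.8%) had the FPKM of every pre-AML library below every control, and B2m was 1 of them. Without pre-AML 3 the log2 fold change was -0.20 (limma-trend, adjusted p = 0.53), and its unadjusted p was then under 0.05. With each library's trend with gene length and GC content removed it was -0.19, and after quantile normalization it was -0.05. It was -0.28 with the same FPKM total in each library, -0.64 without pre-AML 1 and -0.45 with a pseudocount of 0.1. Each of these 3 settings gave an unadjusted p under 0.05 (limma-trend), with adjusted p of 0.429, 0.312 and 0.474. Relative to Pf4 in the same library B2m did not separate the groups, with ratios of 0.799, 1.02 and 1.12 in control 1, 2 and 3 and 1.01, 0.866 and 0.856 in pre-AML 1, 2 and 3. The summed level of 14 platelet markers was 91012 to 114954 FPKM in the control libraries and 92030, 93467 and 62398 FPKM in pre-AML 1, 2 and 3, and its part in the B2m values was not tested.

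H2-D1 (Entrez gene 14964, chr17:35262730-35267499, plus strand) and H2-K1 (Entrez gene 14972, chr17:33996017-34000347, minus strand) are the classical heavy chains, which present peptides to CD8 T cells. They encode H2-Db and H2-Kb in the H-2b haplotype of C57BL/6 mice. H2-D1 had 558, 584 and 698 FPKM in control 1, 2 and 3 and 729.8, 632 and 678 FPKM in pre-AML 1, 2 and 3. The ranges overlapped, since control 3 was above pre-AML 2 and 3. The log2 fold change was 0.15 with a standard error of 0.14 (limma-trend, adjusted p = 0.651 with Benjamini-Hochberg adjustment). H2-K1 had 129, 112 and 160 FPKM in control 1, 2 and 3 and 151, 132 and 143 FPKM in pre-AML 1, 2 and 3. All pre-AML values lay inside the control range, and the log2 fold change was 0.10 with a standard error of 0.16 (limma-trend, adjusted p = 0.811 with Benjamini-Hochberg adjustment). It had the opposite sign, at -0.02, without control 2, and -0.01 with the length and GC trends removed, and it was 0.27 with the same FPKM total in each library. H2-D1 made up 0.103% to 0.135% of the FPKM total in controls and 0.137%, 0.124% and 0.180% in pre-AML 1, 2 and 3. For H2-K1 the share was 0.0216% to 0.0311% in controls and 0.0284%, 0.0260% and 0.0381% in pre-AML 1, 2 and 3. Pre-AML 3 was above every control for both genes, and pre-AML 1 was also above for H2-D1. H2-D1 stood at 4.31 to 5.19 times H2-K1 in control and 4.73 to 4.83 times in pre-AML libraries. Heavy-chain genes are close copies of each other, so the split of reads between them is uncertain.

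H2-T23 (Entrez gene 15040, chr17:36029773-36032855, minus strand) encodes Qa-1, a nonclassical heavy chain that presents leader peptides of other class I chains to the NKG2A receptor of NK cells. It had 85.3, 87.0 and 100.3 FPKM in control 1, 2 and 3 and 99.3, 103 and 97.0 FPKM in pre-AML 1, 2 and 3. Control 3 reached into the pre-AML range and the other controls were below it. The log2 fold change of 0.14 with a standard error of 0.13 (limma-trend, adjusted p = 0.658 with Benjamini-Hochberg adjustment) did not pass the threshold, and it was 0.31 with the same FPKM total in each library. H2-T23 made up 0.0157% to 0.0194% of the FPKM total in controls and 0.0187%, 0.0203% and 0.0258% in pre-AML 1, 2 and 3. Pre-AML 2 and 3 were above every control on this scale.

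Tapbp (Entrez gene 21356, chr17:33915899-33929292, plus strand) encodes tapasin, which bridges the peptide transporter and the heavy chain. It had 45.5, 41.7 and 46.8 FPKM in control 1, 2 and 3 and 44.9, 44.3 and 41.8 FPKM in pre-AML 1, 2 and 3. Every pre-AML value lay inside the control range. The log2 fold change was -0.03 with a standard error of 0.13 (limma-trend, adjusted p = 0.937 with Benjamini-Hochberg adjustment). Without pre-AML 3 its value was 0.0012, and removal of the length and GC trends gave -0.18. On scales that set each library to the same FPKM total or use recovered reads it was 0.14 and 0.12. Those scales moved the median of all genes tested from -0.06 to 0.08 and 0.09.

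**Figure D2:**
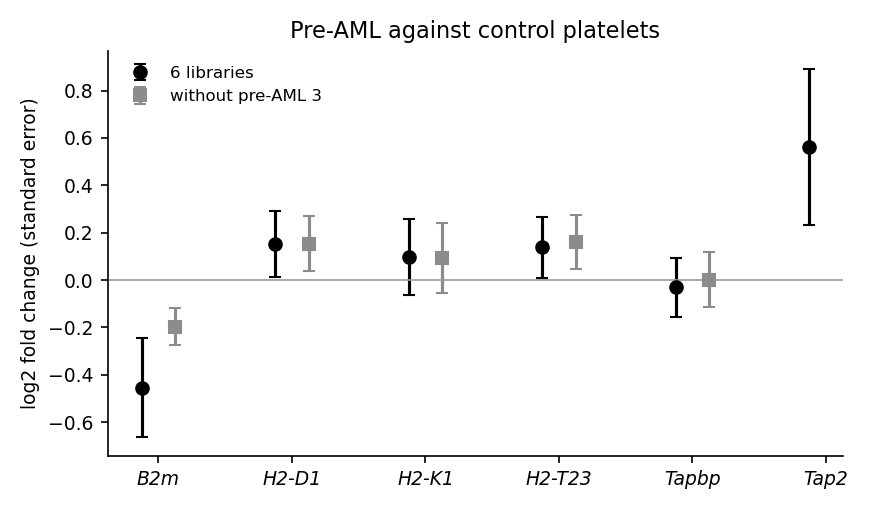
Log2 fold change of pre-AML over control FPKM with its standard error from limma-trend for the 6 members tested, with all 6 libraries in black and without pre-AML 3 in gray. B2m is below 0 in both, at -0.45 and -0.20, and Tap2 has no value without pre-AML 3 because its mean was then under 1 FPKM.

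Within a library the abundant members can be set against B2m, which cancels the scaling of the library. H2-D1 was 0.880%, 0.921% and 1.07% of B2m FPKM in control 1, 2 and 3 and 1.20%, 1.23% and 2.07% in pre-AML 1, 2 and 3. H2-K1 was 0.177% to 0.247% of B2m in control and 0.249% to 0.439% in pre-AML libraries. H2-T23 was 0.135% to 0.154% of B2m in control and 0.164% to 0.297% in pre-AML libraries. In all 3 heavy chains each pre-AML library was above every control, with the closest values for H2-K1. Tapbp was 0.0658% to 0.0719% of B2m in control and 0.0742% to 0.128% in pre-AML libraries, again with no overlap. These ratios share one denominator, and 1163 of 4411 genes (26.4%) had a ratio to B2m in every pre-AML library above every control. Summed over the 17 heavy-chain genes in the table, B2m stood at 68.0, 68.5 and 57.0 times the heavy chains in control 1, 2 and 3 and at 53.1, 49.9 and 31.0 times in pre-AML 1, 2 and 3. The lowest ratio was in pre-AML 3, where B2m itself was lowest, and the groups did not overlap.

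**Figure D3:**
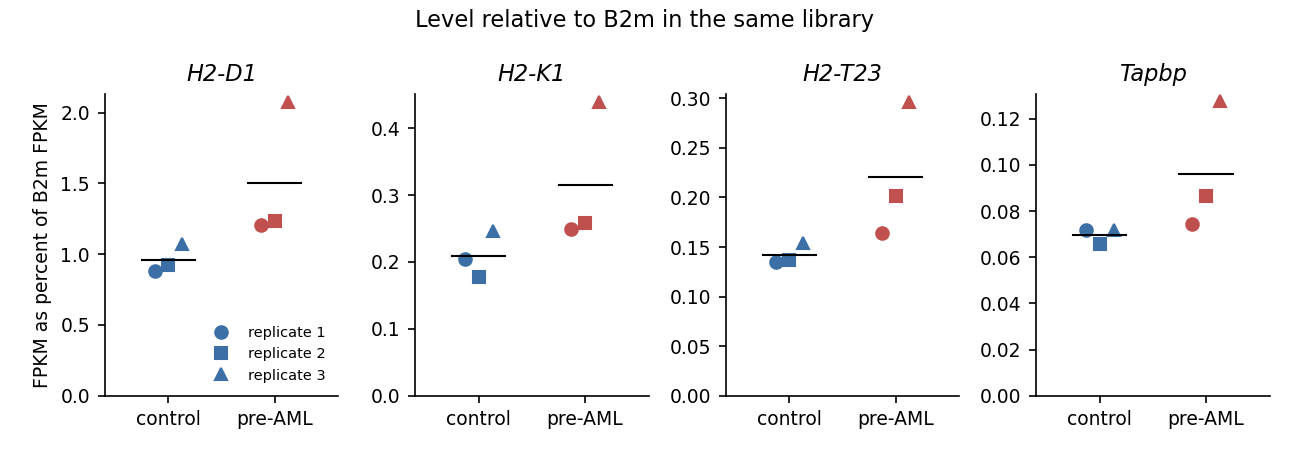
FPKM of H2-D1, H2-K1, H2-T23 and Tapbp as percent of B2m FPKM in the same library, with points for libraries and lines for group means. Each pre-AML library lies above every control in the 4 panels, and pre-AML 3 is highest, from 0.128% for Tapbp to 2.07% for H2-D1.

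Tap1 (Entrez gene 21354, chr17:34187553-34197225, plus strand) and Tap2 (Entrez gene 21355, chr17:34203527-34216321, plus strand) together form the peptide transporter. Tap1 had 0.264, 0.350 and 0.107 FPKM in control 1, 2 and 3 and 0.206, 0.412 and 1.86 FPKM in pre-AML 1, 2 and 3. These values came from 17, 27 and 7 recovered reads in control 1, 2 and 3 and 15, 34 and 237 in pre-AML 1, 2 and 3. The first 2 pre-AML libraries were in or near the control range and pre-AML 3 was at 7.70 times the control mean. The 95% exact Poisson interval of the reads, which covers counting error only, was 2.81 to 14.4 in control 3, the lowest control, 17.8 to 39.3 in control 2, the highest, and 23.5 to 47.5 and 208 to 269 in pre-AML 2 and 3. The intervals of control 2 and pre-AML 2 overlapped. The reads come from libraries of different depth. FPKM takes that into account by a library size, which in pre-AML 3 was 1.31 times its recovered reads on listed genes. Tap1 was under the filter of 1 FPKM, and without a filter its log2 fold change was 0.45 (adjusted p = 0.705, limma-trend with Benjamini-Hochberg adjustment).

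Tap2 had 0.586, 0.564 and 0.467 FPKM in control 1, 2 and 3 and 0.636, 0.806 and 2.95 FPKM in pre-AML 1, 2 and 3. Its recovered reads were 26, 30 and 21 in control 1, 2 and 3 and 32, 46 and 260 in pre-AML 1, 2 and 3. Each pre-AML library was above every control, as in 271 of the genes tested (6.14%), but the gap between pre-AML 1 and control 1 was within the counting error of their reads, with intervals of 21.9 to 45.2 and 17.0 to 38.1. The log2 fold change was 0.56 with a standard error of 0.33 (limma-trend, adjusted p = 0.537 with Benjamini-Hochberg adjustment), and Tap2 passed the filter only through pre-AML 3. Both transporter genes were highest in the library in which the monocyte and macrophage sum was 298 FPKM and the B cell sum 59.6 FPKM. The part of those cells in the Tap1 and Tap2 values was not tested. Tapbp was 172, 119 and 435 times Tap1 in control 1, 2 and 3, 218 and 108 times in pre-AML 1 and 2, and 22.5 times in pre-AML 3.

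Erap1 (Entrez gene 80898, chr13:74639568-74693201, plus strand) encodes the aminopeptidase that trims peptides in the endoplasmic reticulum, known as ERAAP in mouse. It had 0.293, 0.166 and 0.173 FPKM in control 1, 2 and 3 and 0.176, 0.291 and 0.324 FPKM in pre-AML 1, 2 and 3, from 15 to 55 reads. Control 1 was above pre-AML 1 and 2, and the groups overlapped. Pre-AML 3 was at 1.54 times the control mean of Erap1, against 5.47 times for Tap2.

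The starts of the members were compared as sequence, to set the abundant genes beside the scarce transporter gene. In RefSeq promoters (GRCm38.p6, 250 bases before the start, 1 per gene), 7 of the 8 members had an entry, and Tap2 had none. The interferon-stimulated response element, as GAAA and GAAA with 2 bases between them, searched on both strands as all motifs here, occurred in 3.04% of 27025 promoters and, among the members, in B2m and H2-T23. A kappaB site, as GGGA and CC with 4 bases between them, occurred in 17.3% of promoters and in B2m, H2-D1 and H2-K1, where both strands matched at overlapping positions. CCAAT occurred in 34.5% of promoters and in 6 of the 7 members, Erap1 being without it. TGACG, the core of a cyclic AMP response element, occurred in 17.9% of promoters and in B2m, H2-D1, H2-K1 and Tap1. The gamma-activated sequence, as TTC and GAA with 3 bases between them, occurred in 7.18% of promoters and in none of the 7 members with an entry. The stretches of B2m (chr2:122147487-122147686, plus strand), H2-K1 (chr17:34000348-34000547, minus strand) and the interval between the opposed starts of Psmb9 and Tap1 (chr17:34187331-34187555, plus strand) are shown 5′ to 3′, with matches to any of these motifs in capitals.
B2m: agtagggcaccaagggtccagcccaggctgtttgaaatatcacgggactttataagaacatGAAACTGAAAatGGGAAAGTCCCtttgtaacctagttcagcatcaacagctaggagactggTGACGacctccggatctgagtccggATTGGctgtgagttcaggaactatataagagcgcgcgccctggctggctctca
H2-K1: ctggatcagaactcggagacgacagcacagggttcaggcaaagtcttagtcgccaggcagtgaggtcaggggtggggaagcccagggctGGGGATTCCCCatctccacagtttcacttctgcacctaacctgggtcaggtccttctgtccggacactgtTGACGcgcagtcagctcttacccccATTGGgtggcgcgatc
Psmb9 to Tap1: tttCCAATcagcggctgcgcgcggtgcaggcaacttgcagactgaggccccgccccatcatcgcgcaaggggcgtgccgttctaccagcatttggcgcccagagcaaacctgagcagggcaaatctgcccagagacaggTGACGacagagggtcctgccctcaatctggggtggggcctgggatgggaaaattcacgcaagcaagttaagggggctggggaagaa
In B2m the interferon element starts 139 bases and the kappaB match 127 bases before the start, so they lie next to each other. In H2-K1 the kappaB match starts 111 bases before the start. The interval of Psmb9 and Tap1 holds a CCAAT box and a TGACG match and none of the other motifs. A match describes letters in this window and nothing of binding in these cells. The patterns are exact, so a gene without a match can still hold a variant of the element. Psmb9 and Tap1 overlap in the GENCODE annotation, and with no strand in the kit's reads, those of the overlap cannot be told apart.

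Psmb9 and Psmb8, which flank Tap1 on chromosome 17, encode inducible subunits of the immunoproteasome, as does Psmb10. Of the immunoproteasome and its PA28 activator, 4 of 5 genes were tested, 0 passed the adjusted threshold, 2 had an unadjusted p under 0.05 on the higher side, as 2.56% of all genes did, and the median log2 fold change was 0.39 against -0.06 over all genes. Without pre-AML 3, 1 of the 4 had such a p, as 3.76% of all genes did, and the median was 0.21 against -0.03 over all genes. Psme1 and Psme2, the PA28 subunits and the most abundant genes of the list, had 24.4 to 29.3 and 4.36 to 9.28 FPKM over the 6 libraries and log2 fold changes of -0.02 and -0.05. The 3 inducible subunits were scarce, as were Tap1 and Tap2, and they were named after their values had been seen. Psmb8 had 0.882, 1.47 and 0.671 FPKM in control 1, 2 and 3 and 1.36, 2.39 and 8.42 FPKM in pre-AML 1, 2 and 3. Psmb9 had 0.115 to 0.408 FPKM in controls against 0.349, 0.380 and 1.73 FPKM in pre-AML 1, 2 and 3. Psmb10 had 0.493 to 1.33 FPKM in controls against 1.59, 1.71 and 5.003 FPKM in pre-AML 1, 2 and 3. All were highest in pre-AML 3, and Psmb8 of pre-AML 1 and Psmb9 of pre-AML 1 and 2 lay inside the control range.

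The constitutive subunits that these replace overlapped between the groups. Psmb5, the counterpart of Psmb8, had 32.5 to 41.7 FPKM in controls against 34.3 to 41.5 FPKM in pre-AML libraries, and Psmb6, the counterpart of Psmb9, had 8.05 to 8.56 and 6.55 to 8.45 FPKM. Of the 5 constitutive genes 4 were tested, with 1 log2 fold change above 0 and 3 below. The ratio of Psmb8 to Psmb5 was 0.0161 to 0.0453 in control, 0.0396 and 0.0576 in pre-AML 1 and 2 and 0.225 in pre-AML 3. Psmb9 over Psmb6 was 0.0141 to 0.0507 in control, 0.0430 and 0.0581 in pre-AML 1 and 2 and 0.205 in pre-AML 3. So the inducible form of both was the minor one in every library. For Psmb10 over Psmb7 the ratio was 0.283 to 0.803 in control and 0.881, 1.05 and 3.88 in pre-AML 1, 2 and 3. The 4 scarce leukocyte markers above were at 174 FPKM in pre-AML 3, and the part of such cells in these ratios was not tested.

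**Figure D4:**
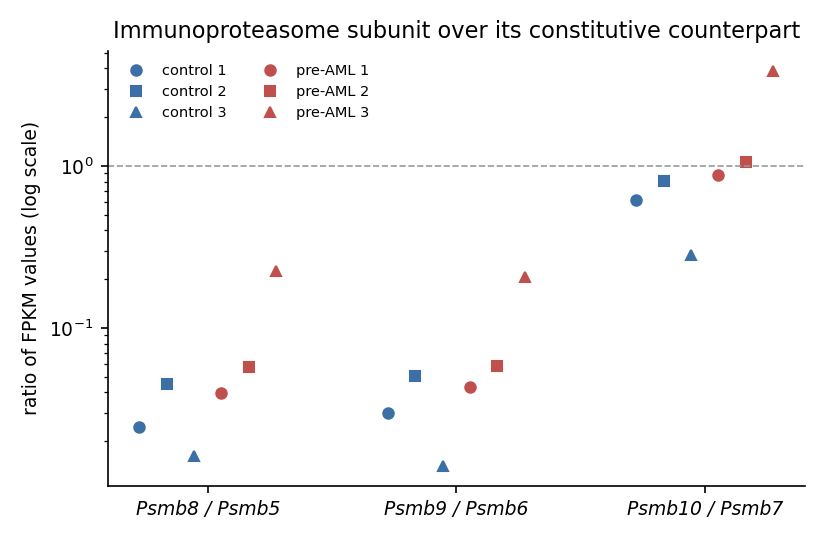
Ratio of FPKM of each inducible proteasome subunit to its constitutive counterpart in each library on a log axis, with the dashed line at 1. Pre-AML 3 is highest in each pair, at 0.225, 0.205 and 3.88, and the other libraries stay at or under 1.05.

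Outside the members, 14 other class I heavy-chain genes were in the table and 4 were tested. H2-T24 and H2-T22, nonclassical heavy chains of the T region, were the most abundant, with 91.7 to 143 and 21.3 to 31.9 FPKM and log2 fold changes of -0.16 and -0.18. Both were lowest in pre-AML 3 on the FPKM scale. The median of the 4 was -0.17 against -0.06 over all genes, with 1 above 0 and 3 below. The gene above 0 was H2-Bl, named after its values had been seen, with 1.37 to 4.70 FPKM in the control libraries, 3.71 to 9.73 FPKM in pre-AML libraries and a log2 fold change of 0.92 (limma-trend, adjusted p = 0.522), which was the 1 tested gene of this list with an unadjusted p under 0.05 on the higher side, as 2.56% of all genes had. The scarce genes of the list, also named after their values had been seen, went both ways in pre-AML 3. H2-K2, H2-Q4, H2-Q6, H2-M3, Hfe and Fcgrt had at most 0.654 FPKM in the control libraries and 0.561 to 2.55 FPKM in pre-AML 3. H2-K2 was above every control in each pre-AML library, at 0.439, 0.697 and 1.15 FPKM against 0.0491 to 0.290 FPKM. It rested on 1 to 46 recovered reads and was under the filter. Of the genes tested, 6.14% had every pre-AML library above every control. Pre-AML 3 was below every control for H2-T10, at 0.338 FPKM against 0.478 to 0.664 FPKM, for Cd1d1, at 0.650 against 0.785 to 1.46 FPKM, and for Mr1, at 0.631 against 1.12 to 1.32 FPKM. Mr1 was also below every control in pre-AML 1 and 2, at 0.980 and 1.11 FPKM. In 12.8% of the genes tested every pre-AML library was below every control.

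Among peptide loading genes, Bcap31 takes part in the exit of class I molecules from the endoplasmic reticulum. It had 1086 to 1258 FPKM in controls against 1111, 1022 and 790.3 FPKM in pre-AML 1, 2 and 3. Calr, the chaperone calreticulin of the loading complex, had 33.3 to 58.9 and 31.8 to 34.6 FPKM. Of the 6 genes tested in the list 5 had log2 fold changes below 0, as had 2583 of all 4412 genes, the median was -0.26 and 0 passed the threshold. Without pre-AML 3 all 6 were below 0, as were 2340 of all 4258 genes then tested, the median was -0.22, and 2 had an unadjusted p under 0.05 on the lower side, as 5.21% of all genes did. The cytosolic and endosomal peptidases Npepps and Blmh, which shorten peptides, had 6.46 to 7.08 and 1.66 to 2.24 FPKM in controls against 3.78 to 5.60 and 1.05 to 1.59 FPKM in pre-AML libraries. Neither passed the adjusted threshold (adjusted p = 0.522 and 0.529, limma-trend with Benjamini-Hochberg adjustment), and both had every pre-AML library below every control, as 12.8% of genes did.

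Among the regulators of class I genes, Nlrc5, the transactivator of class I promoters, was at 0.0498 to 0.355 FPKM in all libraries, and it was named after its values had been seen. The most abundant in its list of transcription and interferon signaling genes were Jak1 and Jak2, kinases of cytokine receptors, with 29.6 to 46.0 and 6.27 to 12.6 FPKM. Of 10 tested, 5 were above 0 and 5 below, with a median of -0.0025 and 0 passing the threshold. Of 15 tested interferon target genes 3 were above 0 and 12 below, with a median of -0.19, and without pre-AML 3 the split was 7 and 8 and the median -0.03. Igtp, an interferon-inducible GTPase, had 258.5 to 303 FPKM in controls against 203 to 259 FPKM in pre-AML libraries, and Isg15, a ubiquitin-like protein, had 44.1 to 56.6 and 36.5 to 56.2 FPKM. None of these 15 genes passed the adjusted threshold, and 1 of them was lower at an unadjusted p under 0.05, which is near the 6.53% over all genes, of which 2583 of 4412 were below 0.

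MHC class II genes served as a contrast, since class II molecules belong to antigen-presenting cells and not to platelets. Cd74, the invariant chain, had 0.751 to 1.48 FPKM in controls against 0.671, 15.2 and 168 FPKM in pre-AML 1, 2 and 3. H2-Ab1 had at most 0.553 FPKM in the control libraries, was listed at 0 in control 1 and pre-AML 1, and had 3.54 and 33.7 FPKM in pre-AML 2 and 3. Of the 7 class II genes 4 were tested and 0 passed the threshold. H2-Aa and H2-Ab1 reached a mean of 1 FPKM only through pre-AML 3, and without that library 2 genes of the list were tested. In the pre-AML libraries the class I heavy chains H2-D1 and H2-K1 differed from the control mean by at most 0.25 on the log2 scale of FPKM + 0.1, as the map of relative levels shows.

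The genes most like B2m and Tap1 over the 6 libraries were found by the Pearson correlation of log2(FPKM + 1), as a description. Pre-AML 3 was the lowest library for each gene like B2m and the highest for each gene like Tap1. For B2m they were Umad1, Ifrd1, Rab6a, Sat1 and Fam126a, with r of 0.996, 0.995, 0.994, 0.993 and 0.992. Rab6a, a small GTPase of the Golgi, had 75.1 to 80.7 FPKM in controls against 71.7, 63.3 and 41.1 FPKM in pre-AML 1, 2 and 3. For Tap1 they were Ptpn6, Rpl18, Slfn2, Arhgef1 and Degs1, with r of 0.995, 0.994, 0.994, 0.993 and 0.993. Ptpn6, the phosphatase SHP-1 of blood cells, was listed at 0 in control 3 and pre-AML 1 and had 9.93 FPKM in pre-AML 3.

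**Figure D5:**
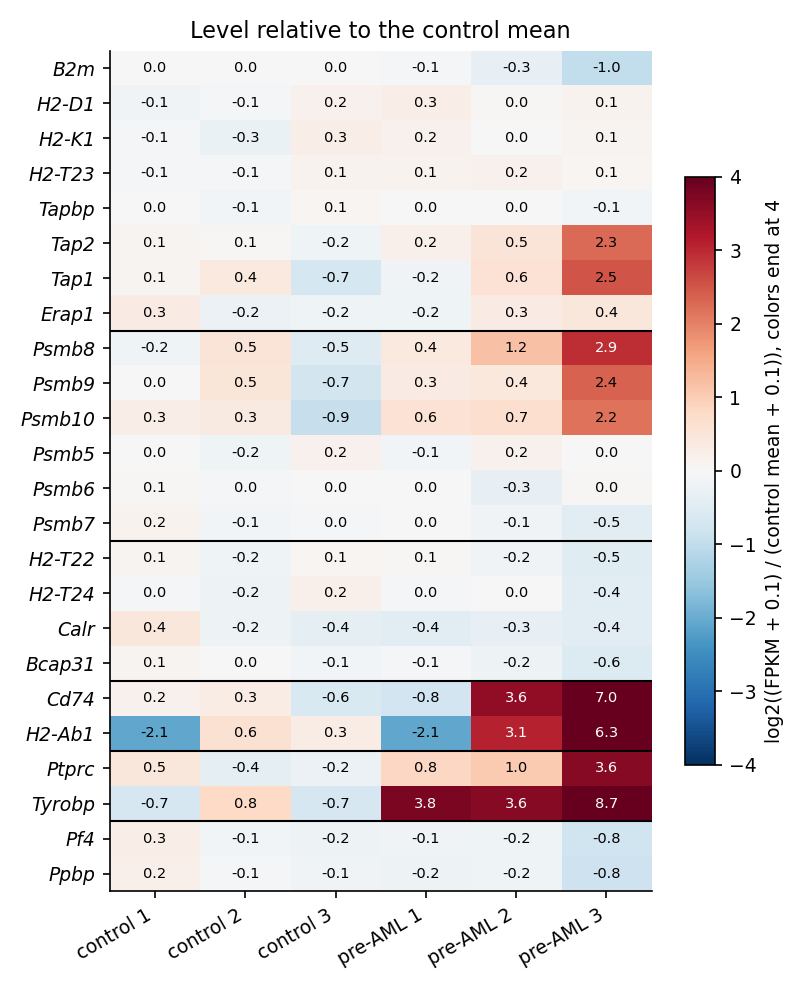
Log2 ratio of FPKM + 0.1 to the control mean + 0.1 in each library for the members, the proteasome subunits, further heavy chains and loading genes, MHC class II genes, leukocyte genes and platelet genes, with lines between the groups. In pre-AML 3, Tap2 and Tap1 are at 2.25 and 2.52, Psmb8 at 2.94 and Cd74 at 7.01, while B2m is at -0.97 and H2-D1 at 0.14.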

How the data were processed

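The authors mapped reads to mm10 with STAR and used DESeq2. The deposited table holds FPKM values per gene and library, made by the authors; the counting program and annotation are not given in the sources used here. All columns were mapped to samples by name. Members and gene lists were chosen with earlier results of these data known. Genes were named by rule: all members, the 2 most abundant tested genes of each pathway list, 2 of each marker list by level in any library, and the 5 genes most like B2m and Tap1. Marker genes named by it are given mostly within sums. Psmb7, Psmb8, Psmb9, Psmb10, Ptprc, Cd53, Nlrc5 and H2-Aa fall outside the rule and were chosen after their values were seen. The same holds for the heavy chains H2-Bl, H2-K2, H2-Q4, H2-Q6, H2-M3, H2-T10, Cd1d1, Mr1, Hfe and Fcgrt.

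The test was limma-trend (limma 3.58.1, R 4.3.3) on log2(FPKM + 1) of genes whose mean reached 1 FPKM, with 3 libraries per group, no covariates, Benjamini-Hochberg adjustment and a threshold of 0.05. Fold changes are on this scale, which understates changes of low genes. The test was also run on simulated counts in which no library stood apart, so that run does not cover a library such as pre-AML 3. Whole reads were recovered with GENCODE M21 exon lengths within 0.05 reads for 83.0% of values above 0, and in all libraries for 12249 genes. H2-D1 was not among them. Lengths, GC content and positions are of GRCm38. Alternatives were a pseudocount of 0.1, other filters, the same FPKM total, quantile normalization, limma-voom on recovered reads, length and GC trends removed by loess, a replicate block, and leaving out each library. Python 3.11.15 was used for tables and figures. Recovered reads and depth limit only counting error.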

Additional observations from a re-analysis of the deposited data

How the results depend on the processing

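The count of members past the adjusted threshold was 0 in the main analysis and under all 14 alternatives. Over all genes the count was 1 in the main analysis. It was 0 with no filter on low values, with at least 1 FPKM in every library, with the same FPKM total and with limma-voom on recovered reads, and it was 0 to 2 when each library was left out. Of those, leaving out control 1, control 3 or pre-AML 1 gave 0, and leaving out pre-AML 3 gave 2, Gzma and Tyrobp. Genes at an unadjusted p under 0.05 numbered 113 higher and 288 lower in the main analysis. The higher ones numbered 497 with no filter, 275 with the same FPKM total, 187 after quantile normalization, 206 with limma-voom and 70 to 206 when each library was left out. The lower ones numbered 156 with the length and GC trends removed and 134 to 450 when each library was left out.

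B2m kept a log2 fold change below 0 in all settings, from -0.64 to -0.05, with adjusted p from 0.312 to 0.806 (limma). H2-D1, H2-T23 and Tap2 kept a value above 0 in every setting in which they had one, H2-D1 from 0.0032 with the length and GC trends removed to 0.32 with the same FPKM total and H2-T23 from 0.024 to 0.31 under the same pair. Tap2 ranged from 0.41 to 1.33 and had none with at least 1 FPKM in every library or without pre-AML 3. H2-K1 was -0.0117 with the length and GC trends removed and -0.0189 to 0.235 when each library was left out, with the negative value without control 2, and it was 0.27 with the same FPKM total, 0.25 with limma-voom and 0.20 after quantile normalization. Tapbp was 0.14 with the same FPKM total, 0.0599 after quantile normalization, 0.12 with limma-voom, -0.18 with the length and GC trends removed and -0.0772 to 0.0033 when each library was left out. The cause was not tested.

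Same-numbered libraries had correlations of their deviations from the group means of -0.04, -0.12 and -0.17 for numbers 1, 2 and 3. With 3 libraries per group the deviations of a group sum to 0, and pre-AML 3 stood apart. These values therefore cannot show whether the replicate numbers pair the libraries. With the replicate block, 1 gene and 0 members were called and B2m stayed at -0.45 (adjusted p = 0.569, limma). Depth limits Tap1, Tap2 and Erap1, which rest on 7 to 260 recovered reads.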
